A study of Homo sapiens with 4 samples.

Results

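Peaks of the transcription factor SOX4 were examined near 4 genes of the Polycomb and BAH-domain chromatin group, TNRC18, BAHCC1, MTF2 and EZH2, in human glioblastoma cells. A binding site was counted for a gene when a deposited peak lay within 10 kb of its hg19 start. The genes were chosen by the presence of such peaks, with the 3 lists known, so the presence and strength of their peaks are a description and were not tested. The rule found 12 of the 1558 deposited peaks, 4 in each of the 3 lists, and they formed 4 sites at 3 genes. TNRC18 had a pair of sites, BAHCC1 and MTF2 had 1 each, and EZH2 had none.

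The samples were chromatin of U251, an established glioblastoma line, infected with a virus so that it overexpressed SOX4 with an HA epitope tag. All were taken 3 days after infection. An antibody to HA was used for 3 independent immunoprecipitations (IP 1, IP 2 and IP 3), each from 150 µg of chromatin, and 10 µg of the chromatin served as 1 input. The protein followed is therefore the tagged, overexpressed one, and an immunoprecipitation from cells without it was not analysed here. The peak calls rested on 24037735, 23683012 and 19228143 tags for IP 1, IP 2 and IP 3 and gave 627, 524 and 407 peaks. Separate cultures are not named in the labels, so every SD below is the spread between these immunoprecipitations, which may be technical.

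SOX4 is a transcription factor that bends DNA through its HMG box and recognises short sequences with an AACAAAG or AACAATG core. EZH2 is the catalytic subunit of Polycomb repressive complex 2 (PRC2), which methylates histone H3 and keeps developmental genes silent. MTF2, a Polycomb-like protein, binds CpG-rich DNA and brings PRC2 to it. TNRC18 and BAHCC1 are large related proteins with a bromo-adjacent homology (BAH) domain, a fold that reads modified histones. The BAH domain of BAHCC1 is known to read the histone H3 mark that PRC2 writes, and that of TNRC18 a methyl mark of heterochromatin.

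All 3 genes with a site had it in every list, and all 4 sites were found by all 3 immunoprecipitations. Over the whole series, 263 of 862 merged regions (30.5%) held a peak of every list. Nothing is read from this comparison because the genes were chosen with these peaks known. The values used are the authors' own for each peak. The pileup is the number of extended reads over the summit, and the fold enrichment is the ratio of pileup to the local input background, with 1 added to each. Distances run from the gene start to the summit, along the strand of the gene.

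**Figure D1:**
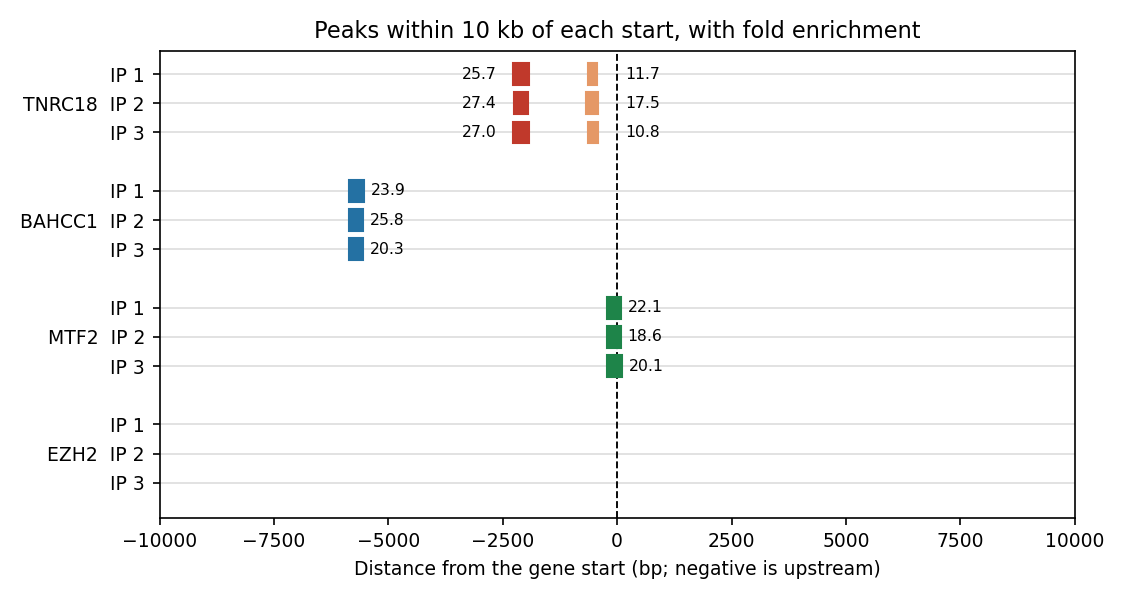
Peaks within 10 kb of the start of each gene, by distance from the start in bp (negative is upstream) and by immunoprecipitation, with the fold enrichment of each peak printed beside it. TNRC18 has a pair of peaks upstream in every list, BAHCC1 has 1 peak 5.70 kb upstream, the MTF2 peak spans the start, and EZH2 has no peak.

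EZH2, the PRC2 enzyme, had no peak within 10 kb of its start on chromosome 7 at 148581441 in any of the 3 lists. The surroundings were empty as well, with 0 peaks within 1 Mb in each list. The nearest peak lay 1484 kb upstream in IP 1, 1495 kb upstream in IP 3 and 7143 kb downstream in IP 2, with folds of 5.64, 5.44 and 6.75. The peaks of IP 1 and IP 3 lay in the lower part of their lists, at rank 399 of 627 and 320 of 407. That of IP 2 lay near the middle, at rank 248 of 524. No peak anywhere was called on a pileup under 11 reads for IP 1, 10 for IP 2 or 12 for IP 3. Binding at EZH2 that gathered fewer reads than this would not have been detectable at this depth. The limit at EZH2 may be higher, since it depends on the local input background, which was not recovered there.

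MTF2, the accessory protein that brings PRC2 to DNA, carried a peak over the start itself. On chromosome 1, where the start is at 93544792 on the plus strand, the peaks ran from 93544577 to 93544874 in IP 1, from 93544577 to 93544873 in IP 2 and from 93544565 to 93544895 in IP 3. The summits lay 72, 68 and 62 bp upstream of the start, a mean of 67.3 ± 5.03 bp (SD, n = 3). They differed by at most 10 bp between lists, against a median range of 37 bp over the 263 shared regions, unadjusted for pileup. Each peak reached between 81 and 103 bp into the gene and covered 86% to 90.8% of the 250 bases upstream of the start.

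The pileup at MTF2 was 95 reads in IP 1 (exact 95% Poisson interval 76.9 to 116), 79 in IP 2 (62.5 to 98.5) and 77 in IP 3 (60.8 to 96.2). These intervals overlap, and they cover counting error only, because PCR copies were not marked by molecular identifiers. Scaled to 1000000 tags of its library, the pileup was 3.95, 3.34 and 4.00, so IP 2 was lowest on this tag-scaled pileup. The fold enrichment was 22.1, 18.6 and 20.1, a mean of 20.3 ± 1.74 (SD, n = 3). The MTF2 peak held rank 5 by fold in every list, of 627, 524 and 407 peaks. Its −log10 q was 94.0, 71.9 and 73.5.

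The upstream sequences of MTF2 and EZH2 are shown because the peak covers the start of one and the other has none, and that of TNRC18 because it alone of the 4 genes held AACAATG. Each is the 250 bases before the RefSeq start on GRCh38.p14, read 5′ to 3′ along the gene, with matches to the searched SOX-type letters in capitals. The peaks are on hg19, and the hg19 starts were not aligned with the RefSeq starts, so no match is placed relative to a summit. The windows are chr1:93079033-93079282 (plus strand) for MTF2, chr7:148884292-148884541 (minus strand) for the farther upstream of 2 listed EZH2 starts, and chr7:5423835-5424084 (minus strand) for TNRC18.
MTF2: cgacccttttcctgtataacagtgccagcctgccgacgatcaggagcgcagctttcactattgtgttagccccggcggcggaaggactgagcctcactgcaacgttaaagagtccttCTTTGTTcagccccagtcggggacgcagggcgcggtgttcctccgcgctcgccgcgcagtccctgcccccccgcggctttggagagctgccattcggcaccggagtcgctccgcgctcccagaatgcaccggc
EZH2: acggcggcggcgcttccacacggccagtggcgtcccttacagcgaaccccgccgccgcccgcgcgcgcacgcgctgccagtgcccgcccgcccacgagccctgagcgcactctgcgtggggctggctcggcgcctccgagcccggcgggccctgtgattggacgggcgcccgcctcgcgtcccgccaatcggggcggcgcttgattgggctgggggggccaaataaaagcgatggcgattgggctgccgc
TNRC18: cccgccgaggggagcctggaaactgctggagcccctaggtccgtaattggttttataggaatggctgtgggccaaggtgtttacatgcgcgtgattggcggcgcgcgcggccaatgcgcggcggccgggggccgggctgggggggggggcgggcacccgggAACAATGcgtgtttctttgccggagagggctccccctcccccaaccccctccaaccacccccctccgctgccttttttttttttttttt

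Both strands were searched for the SOX-type core AACAAAG and for its shorter part ACAAAG. The other SOX-type strings were AACAATG and, shifted along it by a letter, the string ACAATGG. The B box of RNA polymerase III genes and the promoter element CCAAT were searched as well. MTF2 held AACAAAG on the opposite strand, printed as CTTTGTT, from 133 to 127 bases before the RefSeq start. Of 35116 such windows over all listed promoters, 4.50% held AACAAAG and 2.87% held AACAATG. TNRC18 held AACAATG on its own strand, from 89 to 83 bases before its start. BAHCC1 held none of the 4 SOX-type strings, and EZH2 held ACAAAG only at its other listed start. None of the 5 windows of the 4 genes held the B box letters, which occurred in 0.251% of all windows. A match describes these letters only and does not show a binding site.

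The TNRC18 window held CCAAT 3 times, the BAHCC1 window 3 times and the farther upstream EZH2 window 4 times, while MTF2 had none. CCAAT occurred in 32.0% of all windows. GC content was 64.4% for MTF2, 64.8% for TNRC18, 65.2% for BAHCC1 and 75.6% and 79.6% for the 2 EZH2 starts. The median over all windows was 58.0%. Of all windows, 65.4%, 66.5% and 67.6% had less GC than MTF2, TNRC18 and BAHCC1, so these 3 were only moderately high. For the EZH2 starts the shares were 90.7% and 96.3%. CpG dinucleotides numbered 25, 20 and 22 in MTF2, TNRC18 and BAHCC1 and 38 and 39 in EZH2, against a median of 11. EZH2, the gene without a peak, therefore had the most CpG-rich start of the 4.

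TNRC18, the BAH-domain protein with the strongest site, carried a pair of peaks upstream of its start on chromosome 7 at 5463177 (minus strand). The farther site had the highest mean fold of all shared regions, and its peaks ran from 5465100 to 5465449 in IP 1, from 5465117 to 5465428 in IP 2 and from 5465112 to 5465463 in IP 3. Its summit lay 2111, 2100 and 2113 bp upstream, a mean of 2.11 kb with an SD of 7.0 bp (n = 3). The nearer site ran from 5463609 to 5463814 in IP 1, from 5463592 to 5463847 in IP 2 and from 5463598 to 5463818 in IP 3. Its summits lay 542, 547 and 549 bp upstream, and no peak of either site reached the start, since the nearest edge was 415 bp from it. The summits of the pair were 1569, 1553 and 1564 bp apart, with 1269 to 1293 bp between the peaks.

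At the farther TNRC18 site the pileup was 140 reads in IP 1 (95% Poisson interval 118 to 165), 142 in IP 2 (120 to 167) and 136 in IP 3 (114 to 161). It was nearly level across the 3 immunoprecipitations, and its tag-scaled pileup was 5.82, 6.0 and 7.07, highest in IP 3. The fold enrichment was 25.7, 27.4 and 27.0, a mean of 26.7 ± 0.93 (SD, n = 3). It held rank 2 of 627 by fold in IP 1 and rank 1 in IP 2 and IP 3, and rank 1 by −log10 q in all 3 lists. By pileup its ranks were 1, 1 and 3. Its coefficient of variation in fold was 3.49%, against a median of 15.5% over the shared regions. In tag-scaled pileup it was 10.7%, nearer the median of 14.3%. Neither comparison was adjusted for the number of reads, and the median pileup of all peaks was only 22, 23 and 22 reads in IP 1, IP 2 and IP 3.

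The nearer TNRC18 site was weaker and more variable. Its pileup was 53 reads in IP 1 (95% Poisson interval 39.7 to 69.3), 76 in IP 2 (59.9 to 95.1) and 44 in IP 3 (32.0 to 59.1). IP 2 stood highest, and IP 3 came from the fewest tags. Its tag-scaled pileup was 2.20, 3.21 and 2.29, again highest in IP 2, but on that scale the interval of IP 2 (2.53 to 4.02) overlapped those of IP 1 (1.65 to 2.88) and IP 3 (1.66 to 3.07). The fold was 11.7, 17.5 and 10.8, a mean of 13.3 ± 3.67 (SD, n = 3), with ranks of 62 of 627, 10 of 524 and 47 of 407. The coefficient of variation was 27.5%, and rank by mean fold among shared regions was 22, against 9 by tag-scaled pileup.

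Within TNRC18 the farther site exceeded the nearer one in each of the 3 lists. The pileup of the farther site was 2.64 times that of the nearer in IP 1, 1.87 times in IP 2 and 3.09 times in IP 3, a mean of 2.53 ± 0.62 (SD, n = 3). Closely spaced shared regions were not rare, since 68 of the 263 lay no more than 2 kb from the next. That count can include runs of several regions and takes no account of gene starts. Beyond the pair, the nearest peak to TNRC18 outside the 10 kb window was 72.3 kb upstream in IP 1 with a fold of 3.26, and 106 kb upstream in IP 2 with a fold of 4.30. In IP 3 it was 2899 kb downstream with a fold of 10.7.

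**Figure D2:**
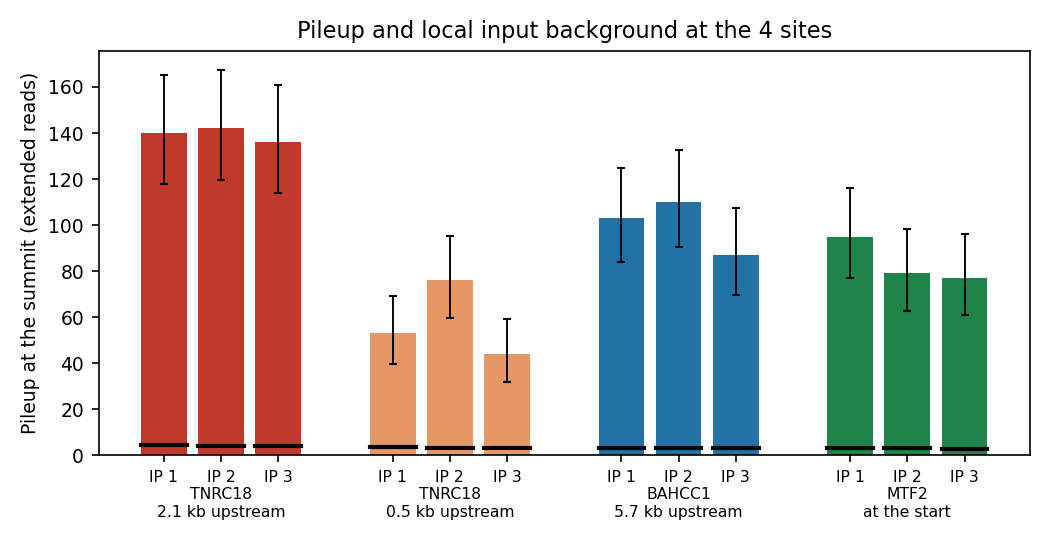
Pileup at the summit (extended reads, linear axis from 0) of the 4 sites in each immunoprecipitation; error bars are exact 95% Poisson intervals and the black line in each bar is the local input background. At the farther TNRC18 site all 3 lie between 136 and 142 reads, while the nearer one runs from 44 to 76, and every background lies under 5 reads.

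BAHCC1, the reader of the PRC2 mark, had a single site well upstream of the hg19 start used here, on chromosome 17 at 79373540 (plus strand). The peaks ran from 79367678 to 79368003 in IP 1, from 79367674 to 79367990 in IP 2 and from 79367674 to 79367997 in IP 3. The summits lay 5697, 5715 and 5700 bp upstream, a mean of 5.70 kb with an SD of 9.64 bp (n = 3). This was the farthest of the 4 sites from a start, and it would be missed with a window of 5 kb. Starts can differ between annotations, and whether another BAHCC1 start lies nearer was not analysed here. The RefSeq start whose upstream letters are described above may be a different base from this hg19 start. Whether the site lies upstream of that RefSeq start or inside the gene was therefore not settled.

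The pileup at BAHCC1 was 103 reads in IP 1 (95% Poisson interval 84.1 to 125), 110 in IP 2 (90.4 to 133) and 87 in IP 3 (69.7 to 107). The 3 intervals overlap, and the tag-scaled values were 4.28, 4.64 and 4.52, with a coefficient of variation of 4.08%. The fold enrichment was 23.9, 25.8 and 20.3, a mean of 23.4 ± 2.84 (SD, n = 3). Fold varied more than tag-scaled pileup, with a coefficient of variation of 12.2%. IP 3 was lowest by fold but not by tag-scaled pileup. The ranks by fold were 3 of 627, 2 of 524 and 4 of 407. The nearest other region, of any list, lay 869 kb away.

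**Figure D3:**
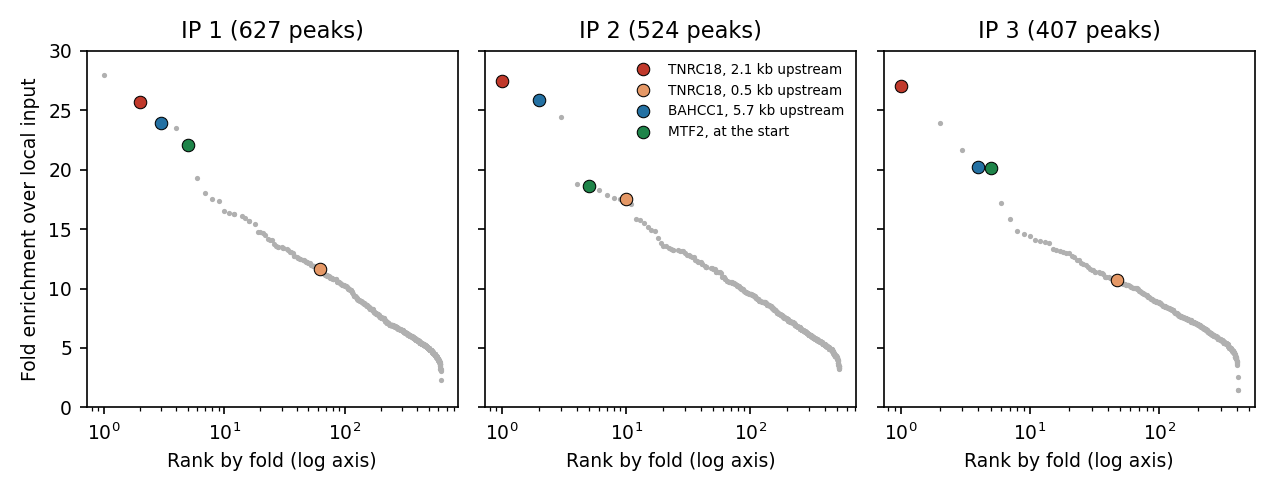
Fold enrichment over local input against rank by fold (log axis) for every peak of each list; grey points are all other peaks and coloured points the 4 sites. The farther TNRC18 site, BAHCC1 and MTF2 lie among the highest 5 peaks of each list, and the nearer TNRC18 site at rank 62, 10 and 47.

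Among the 263 shared regions ordered by mean fold, the farther TNRC18 site held rank 1, BAHCC1 rank 3, MTF2 rank 5 and the nearer TNRC18 site rank 22. The median mean fold of the shared regions was 8.23. The region at rank 2, on chromosome 7 from 90893554 to 90893875, had 24.0 ± 0.48, below the farther TNRC18 site by more than either SD. The region at rank 4, on chromosome 17 from 42634501 to 42634824, had 21.8 ± 6.07. The BAHCC1 mean differed from those of the regions at rank 2 and rank 4 by less than the BAHCC1 SD of 2.84. The difference from the region at rank 2 was larger than that region's own SD. Whether these regions differ within each list was not tested. The MTF2 mean lay within the SD of the region at rank 4. It lay above the region at rank 6, on chromosome 1 from 17293846 to 17294158 with 16.6 ± 3.27. The nearer TNRC18 site fell between regions on chromosomes 14 and 1 with 13.4 ± 0.11 and 13.1 ± 2.02, from which it did not differ beyond its SD.

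The order of the 4 sites by fold was the same in each list. By fold, the farther TNRC18 site was 1.06 to 1.33 times BAHCC1, and BAHCC1 was 1.01 to 1.39 times MTF2. In IP 3 BAHCC1 and MTF2 were level, at 20.3 and 20.1. MTF2 exceeded the nearer TNRC18 site by factors of 1.89, 1.06 and 1.87. The order is a description, and neighbouring sites were close in at least 1 list.

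**Figure D4:**
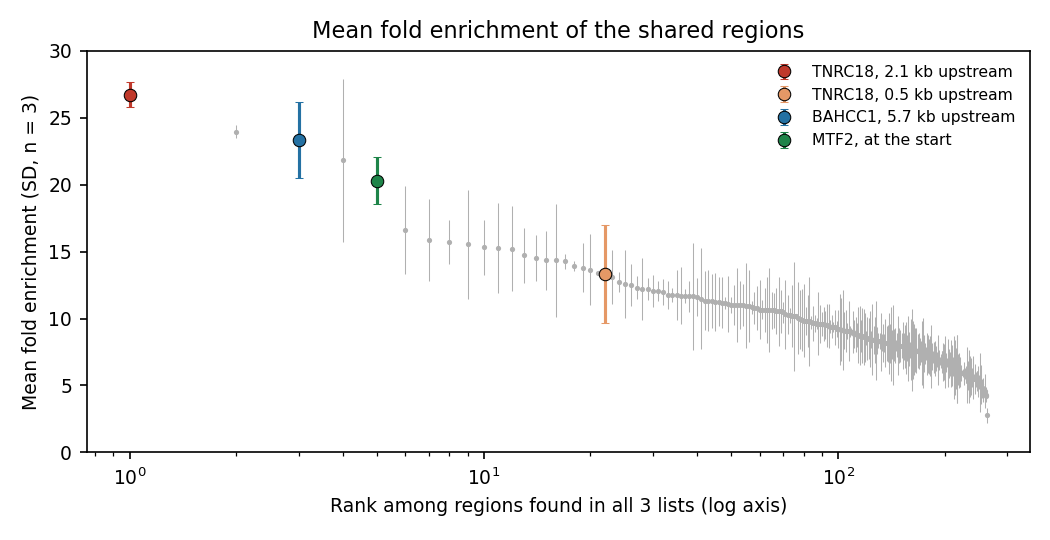
Mean fold enrichment (points) with SD over the 3 immunoprecipitations (bars) for the 263 shared regions against their rank (log axis). The farther TNRC18 site (26.7), BAHCC1 (23.4) and MTF2 (20.3) stand at ranks 1, 3 and 5, and the nearer TNRC18 site (13.3) at rank 22.

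The input behind these folds was thin, and it was the same library in all 3 calls. At BAHCC1 the background corresponded to 4, 4 and 5 input reads within 1 extension length of 163, 155 and 179 bp. At MTF2 it was 4 and 4 reads in IP 1 and IP 2, while in IP 3 it corresponded to 24 reads per 1 kb, which equals 240 per 10 kb. A count of 4 has an exact 95% Poisson interval of 1.09 to 10.2 reads. With the input at the upper end of its interval, the BAHCC1 fold would be 10.9, 11.8 and 10.0, and the MTF2 fold 10.0, 8.48 and 14.8. Folds at the lower end of the interval, which would be higher, were not computed for any site. The SDs over immunoprecipitations do not hold this input error, because the input enters each call unchanged.

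At TNRC18 the background rested on more reads. The farther site had 33, 33 and 34 input reads per 1 kb (also whole as 330, 330 and 340 per 10 kb), and its fold at the upper end of the 1 kb interval would be 19.3, 20.7 and 20.5. The nearer site had 266 reads per 10 kb in all 3 calls, with folds of 10.6, 15.9 and 9.80 at the upper end. BAHCC1 and the farther TNRC18 site therefore differ less firmly than their SDs alone would have it. Relative to the genome average, the mean background was 3.13 times at the farther TNRC18 site, 2.50 times at the nearer one, 2.45 times at BAHCC1 and 2.33 times at MTF2, against a median of 1.91 times over shared regions. Since the caller uses whichever is larger, a local window or the genome average, this ratio cannot fall below 1. At BAHCC1 the genome average alone would give 1.74, 1.65 and 1.91 input reads per extension length. These lie within the intervals of the 4, 4 and 5 reads counted, so raised input is not shown over that short window. The same holds at MTF2 in IP 1 and IP 2, where the counts and windows were the same. In IP 3, with the same input, MTF2 had 24 reads per 1 kb. The interval of that count, 15.4 to 35.7, lay above the genome average of 10.7. Both TNRC18 sites also lay above the genome average. In IP 1 the interval was 22.7 to 46.3 for 33 reads per 1 kb at the farther site. At the nearer site it was 235 to 300 for 266 reads per 10 kb, against 107. The part of the input in the peaks was not tested.

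The 3 strongest sites were also broad. Mean widths were 338 bp at the farther TNRC18 site, 322 bp at BAHCC1, 309 bp at MTF2 and 228 bp at the nearer TNRC18 site, against a median of 253 bp over the shared regions. The summit range over the 3 lists was 13, 18, 10 and 7 bp in the same order, each under the median of 37 bp. Width and summit range were not adjusted for pileup, so they are not traits separate from the strength of these sites. Removal of duplicates limits how high a pileup can go. If reads were collapsed by position and strand, at most 326, 310 and 358 extended reads can cover a base in IP 1, IP 2 and IP 3. The farther TNRC18 site reached 42.9%, 45.8% and 38.0% of these limits, and how far the removal lowered its fold was not tested.

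The surroundings of the sites differed. MTF2 had no other region within 768 kb, and the nearest was a region shared by all 3 lists 768 kb downstream, with folds of 10.2, 9.45 and 8.52. In the order of genes of the RefSeq table, the next genes upstream are the non-coding LINC02983 and the protein-coding FBXL18 for TNRC18, and LINC03048 and SLC38A10 for BAHCC1. For MTF2 they are the 7SK pseudogene RN7SKP123 and DIPK1A, and for EZH2 LOC124901767 and PDIA4. The table also places the antisense gene TNRC18-AS1 and part of SLC29A4 over TNRC18, and MIR4740 and MIR3186 within BAHCC1. No peak was placed at any of these genes, since their positions on hg19 were not used here.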

How the data were processed

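Peak lists were analysed for 3 anti-HA immunoprecipitations of HA-SOX4 in U251 cells, sequenced as single-end reads of 50 bases. Bowtie2 2.3.3.1, Picard 2.10 and the build hg19 are named per the submitters' processing notes, and MACS 2.1.1.20160309 per the file headers. Each list was called by the authors separately, per the file headers, against the same input of 28755427 tags, on filtered alignments without duplicates, with fixed extension, a q threshold of 0.05, the larger library scaled to the smaller and local background over 1 kb and 10 kb. The deposited pileup is a signal in reads of the immunoprecipitation. Fold enrichment is a ratio made by the authors with 1 added to each term. Deposited −log10 p and −log10 q belong to the Poisson test at each summit.

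The background was recovered from pileup and fold, and a Poisson tail from it matched the deposited −log10 p within 0.000212 in every peak. Input reads are backgrounds whole to within 0.01 reads for a window of the caller. Peaks overlapping by at least 1 bp were merged. The 4 starts are those of the selection rule on hg19, and strands come from RefSeq. An hg19 sequence or annotation was not used here, so the planned counts over other PRC2 and BAH-domain genes were not made. All 4 genes matched the RefSeq promoter table. The genes named are the 4 members, the regions beside them in the fold order, and neighbouring genes. The members and lists were chosen with earlier results of these data known. With 1 group of lists there is no contrast, and no test was made. Alternatives were each immunoprecipitation left out, other windows, other rankings, a stricter q, a stricter overlap and a fold with nothing added. Others took the midpoint of the peak for the distance or, within a region, the peak with the summit nearest to the start. Region merging was tested on simulated data. Python 3.11.15, pandas 2.3.3, SciPy 1.17.1 and matplotlib 3.10.9 were used.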

Additional observations from a re-analysis of the deposited data

How the results depend on the processing

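Of 50 alternatives over 10 results, 44 left the value within the spread between immunoprecipitations or, for the count of genes, within 1.5 times. The 44 include an alternative for TNRC18, BAHCC1 and MTF2 that took the peak with the summit nearest to the start. It could not change the fold, because no member region held several peaks of a list. For TNRC18 it stayed with the farther site. With nothing added to pileup and background, the mean fold was 32.8 at the farther TNRC18 site, 30.1 at BAHCC1 and 26.4 at MTF2, higher by construction. MTF2 moved from rank 5 to rank 4 when regions were ranked by pileup scaled to the tags of each library or by −log10 q, and ranked 4 to 5 with 1 immunoprecipitation left out, 4 without IP 1. BAHCC1 went from rank 3 to rank 2 by either of these rankings. It ranked 3 without IP 1, 4 without IP 2 and 2 without IP 3. These shifts count among the 44 because the BAHCC1 rank itself varied between lists, while MTF2 held the same rank in each. The farther TNRC18 site kept rank 1 in all 5 of its alternatives. The count of genes with a peak in every list, 3, was 2 with a window of 1 kb or 5 kb, since BAHCC1 lies farther out, and 3 with 50 kb, at a q of 1e-10 or less, with a reciprocal overlap of 50% and without any 1 immunoprecipitation. EZH2 had no peak and so no alternative value. No paired analysis was possible because the input is 1 sample without a peak list. Depth limits the folds through the input, which rested on 4 to 5 reads at BAHCC1 and on 4 at MTF2 in IP 1 and IP 2.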

Other observations

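Promoter letters were also counted for the other genes of the PRC2 and BAH-domain lists, without peaks, since their hg19 positions were not used here. Of 14 PRC2 and accessory genes, 13 had a RefSeq promoter, and AACAAAG was found in the 250 upstream bases of 1 of them, MTF2. Of 11 BAH-domain genes, 10 had a promoter, with AACAAAG in BAHD1 and AACAATG in TNRC18. The shorter ACAAAG occurred in 3 of the 13 (EZH2, MTF2 and JARID2, a PRC2 cofactor) and in 4 of the 10 (BAHD1, MTA2, MTA3 and PBRM1), against 13.7% of all windows. CCAAT occurred in 7 of the 13 and 5 of the 10, against 32.0% of all windows. The lists are small, genes with several starts had more than 1 chance of a match, and no test was made.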
